A study of Mus musculus with 8 samples.

Results

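The genes described here are those of the eukaryotic translation initiation factors, taken as every row of the deposited gene table whose symbol starts with Eif1, Eif2, Eif3, Eif4, Eif5 or Eif6. The 10 rows whose symbols mark them as pseudogenes with "-ps" were left out. This gave 75 of the 57180 genes in the table, chosen by name and not by measured values. Of these, 55 were placed by symbol in groups of roles in initiation, its control or related steps, and are called genes with a role. The other 20 are mostly Eif1ad copies clustered on chromosome 12.

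Initiation factors bring the ribosome to the start codon of an mRNA. The eIF4F complex binds the cap and unwinds the leader, eIF3 and the eIF1 and eIF1A proteins hold the small subunit open for scanning, and eIF2 delivers the initiator tRNA. Control converges on eIF2, through kinases that phosphorylate its alpha subunit and the exchange factor eIF2B, and on eIF4E, which the 4E-binding proteins sequester until mTOR phosphorylates them. T cells are known to raise this machinery when they are activated and start to grow.

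The study sequenced RNA of mouse regulatory T cells (Treg cells), a CD4 T cell type that restrains immune responses, under a series title on copper and the suppressive capacity of these cells. Several mice gave the cells, which were isolated by flow cytometry. The 5 libraries labelled chimera WT are called WT1 to WT5 and the 3 labelled chimera KO are called KO1 to KO3. The labels give neither the deleted gene, its promoter or Cre driver, the host and donor strains of the chimeras, nor the age of the animals, so no check of the targeted gene could be made. Each library was built from total RNA with a low-input, full-length kit, and the labels do not say that each came from an animal of its own, so every p-value measures the spread between these libraries only.

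Expected counts summed to between 10.5 and 17.98 M (mega counts) in the WT-labelled libraries and between 4.31 and 8.48 M in the KO-labelled ones. WT4 and WT5 stood apart from WT1 to WT3. Their Treg markers summed to 1127 and 1486 CPM (counts relative to the library total), against 3996 to 6501 in WT1 to WT3. KO1 had 3456, KO2 1496 and KO3 823, so KO2 was close to WT5 and KO3 was below both WT4 and WT5. WT4 held the most CD8 T and NK cell marker counts (1693 CPM, against at most 132 elsewhere) and B cell marker counts (1231 CPM, against at most 590), and WT5 held 6188 CPM of erythroid markers against at most 24.0 elsewhere. The platelet markers Pf4 and Ppbp and the NK marker Ncr1 were under 1 count in all 8 libraries. The part of these other cells in the results below was not tested. The log2 change of a named initiation factor gene is followed by its value without WT4 and WT5 where that moved by over 1.5-fold. Leaving out WT4 and WT5 sets WT1 to WT3, high in Treg markers, against KO-labelled libraries of which KO2 and KO3 were low in them. Log2 changes of other single genes are given with all 8 libraries only. In such bulk libraries, fewer cells of a type and less RNA per cell cannot be told apart.

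Initiation factor genes took a smaller share of the counts in every KO-labelled library. Their share was 0.765% in WT1, 0.687% in WT2, 0.827% in WT3, 0.821% in WT4 and 0.680% in WT5, against 0.571% in KO1, 0.385% in KO2 and 0.331% in KO3. The groups did not overlap, with means of 0.756% ± 0.0704 (SD, n = 5) and 0.429% ± 0.126 (SD, n = 3), a difference of -0.33 percentage points. Without WT4 and WT5 that difference was -0.33 as well. Other classes of RNA moved with it: protein-coding genes held 78.7% to 84.7% of the counts in the WT-labelled libraries and 63.8% to 75.3% in the KO-labelled ones. Within protein-coding counts outside the mitochondrial genome the initiation factor share was 0.832% to 1.05% against 0.519% to 0.758%, still without overlap. The smaller share was thus also present inside the coding fraction.

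**Figure D1:**
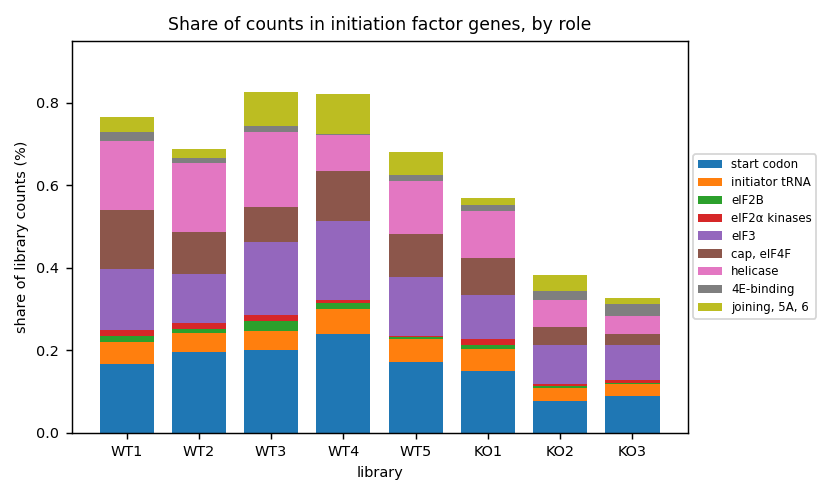
Stacked bars give the share of each library's counts (%) held by initiation factor genes, coloured by role, for WT1 to WT5 and KO1 to KO3. The KO-labelled bars end between 0.331% and 0.571% and the WT-labelled ones between 0.680% and 0.827%, with genes that have no role left out of the bars.

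For the test of each gene, 57 of the 75 passed the filter on low counts, 52 of them with a role. Values below are CPM scaled by TMM factors, called normalised CPM, and log2 changes are KO-labelled minus WT-labelled. The edgeR quasi-likelihood test with Benjamini-Hochberg adjustment called 0 of the 57, and 0 of all 14755 genes tested (0.0%). At an unadjusted p under 0.05, 7 initiation factor genes were lower in the KO-labelled libraries (Eif4a2, Eif3e, Eif4g2, Eif1, Eif3k, Eif3m and Eif5) and 1 was higher (Eif1ad13), where the background over all genes was 6.43% lower and 7.96% higher. DESeq2 called 13 lower and 1 higher, against a background of 10.0% and 6.4% of all genes. A simulation at the observed spread changed 50 genes at each of 2, 4, 8 and 16-fold. There 128 of 159 DESeq2 calls were false, a share that depends on how many genes were changed. In these libraries DESeq2 called 2421 of all genes tested, so that share cannot be carried over to the calls here.

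The estimates pointed mostly one way. Of the 57 tested genes 51 had a negative log2 change, with a median of -1.42, while 56.8% of all genes tested were negative, with a median of -0.42. Without WT4 and WT5 the median of the initiation factor genes was -0.76 with 43 of 57 negative, that of all genes was -0.15, and 32 of the 57 estimates moved by over 1.5-fold. Abundant coding genes as a class did much the same in the fit on all 8 libraries. Of all tested protein-coding genes 66.5% were negative. In the abundant ones, those averaging 5 or more in log2 CPM, 88.2% were negative around a median of -1.49, and of the 40 initiation factor genes in that range 38 were negative around a median of -1.69. At an unadjusted p under 0.05 these 40 gave 7 lower genes, beside 15.2% of abundant coding genes, and DESeq2 called 13 of them lower, beside 23.4%. Abundance was averaged over the same 8 libraries, most of them WT-labelled, so genes high only in WT-labelled libraries can enter this class. Such genes add to its negative share, and the 40 initiation factor genes passed the same cut. Within that limit they sat close to other abundant coding genes in this fit, and these counts do not set them apart.

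The size of the estimates depended on scaling. WT4 had a TMM factor of 0.40, against 1.32 to 1.49 in the KO-labelled libraries. With library totals alone, 41 of 57 genes were negative with a median of -0.62, while the median of all genes moved to 0.21. The median of the initiation factor genes minus that of all genes was -0.84 on the log2 scale without scaling, -1.0 with TMM factors and -0.61 without WT4 and WT5. The groups did not overlap for 5 genes lower in the KO-labelled libraries (background 4.49%, or 11.2% of abundant coding genes) and 1 higher (background 13.2%).

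**Figure D2:**
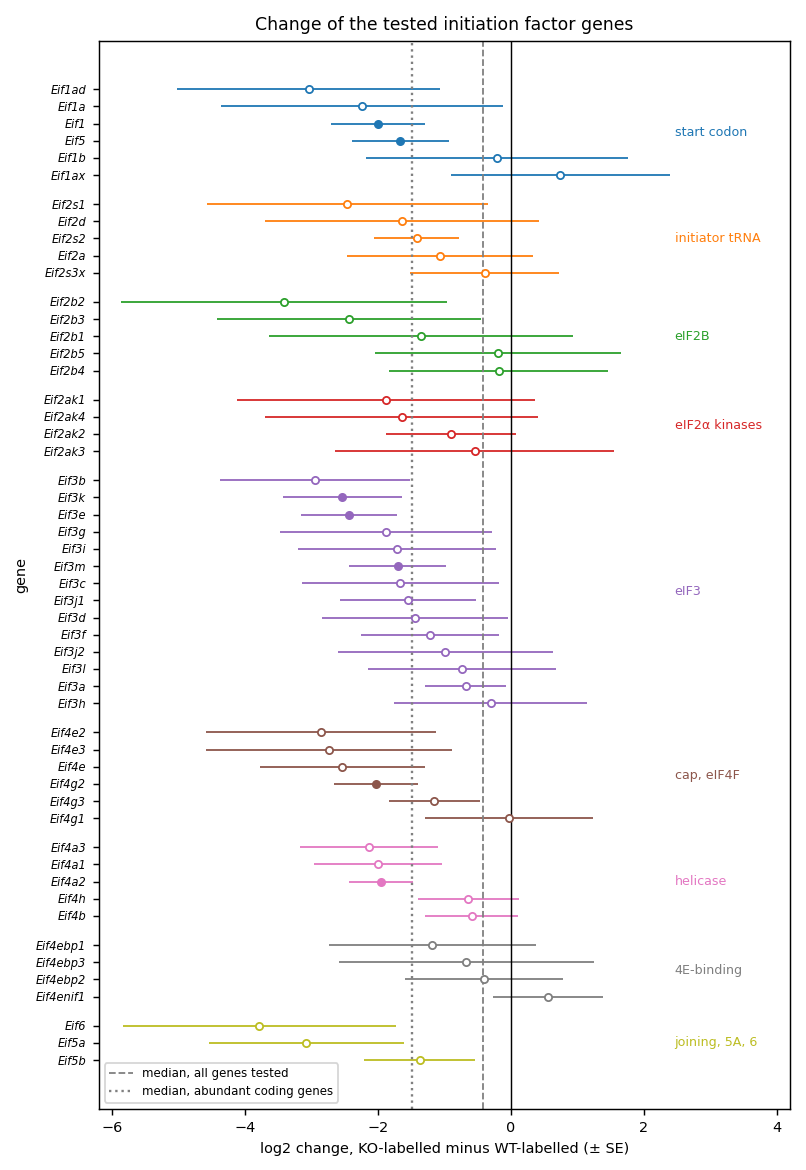
Points give the log2 change (KO-labelled minus WT-labelled, ± SE) of the 52 tested genes with a role, grouped by role, filled where the unadjusted edgeR p is under 0.05. Most points lie left of 0, around the dotted line at -1.49, the median of abundant coding genes, and the dashed line marks the median of all genes tested at -0.42.

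**Figure D3:**
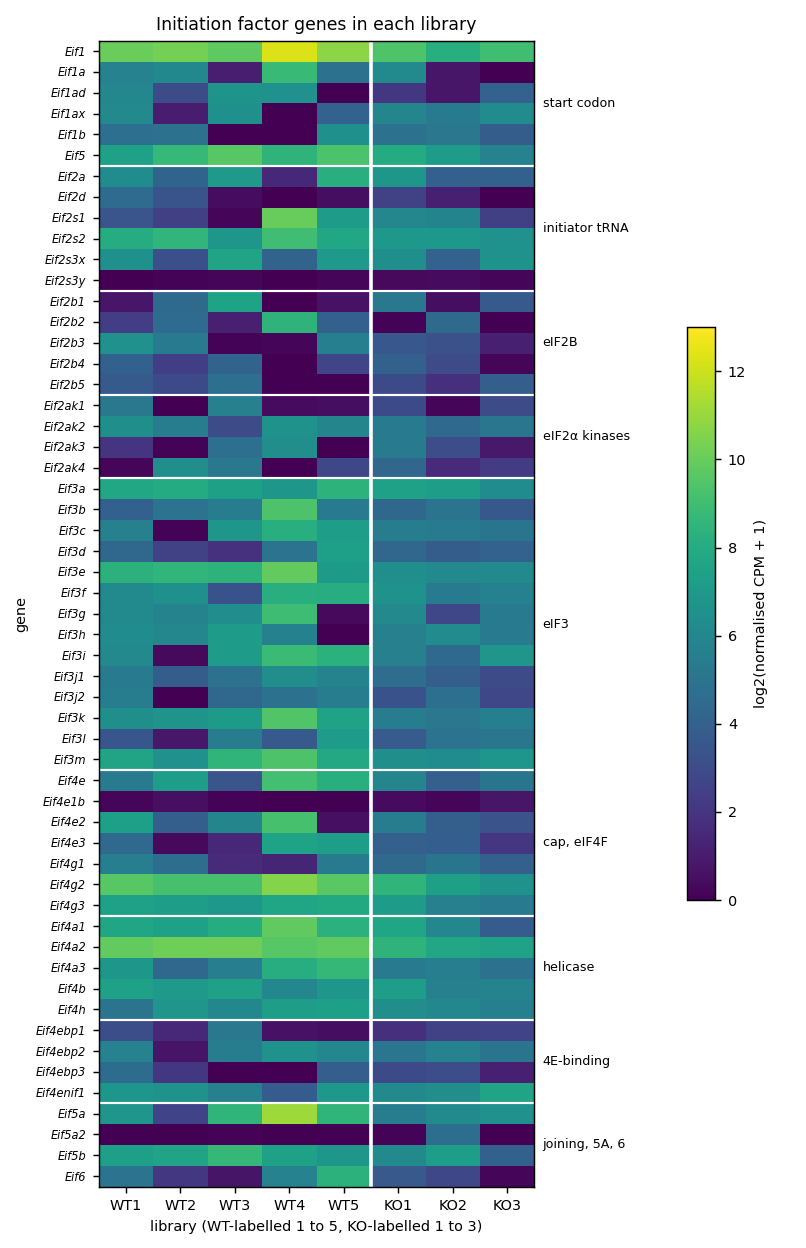
Colour gives log2(normalised CPM + 1) for the 55 genes with a role (rows, grouped by role) in each of the 8 libraries (columns). Dark cells, where a gene had almost no counts, are spread over single genes and libraries and are most frequent in WT4.

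Levels per length, in TPM (counts divided by gene length and scaled to the same sum in every library), put Eif1 first in the order of median level over the 8 libraries, at 1252 TPM. Eif4a2 followed at 392 TPM, Eif5a at 245, Eif3k at 227 and Eif3e at 213. The ranges of neighbours in this order overlapped: Eif1 ran from 530 to 1901 TPM, Eif4a2 from 162 to 1002 and Eif5a from 12.3 to 1171. Eif1 was above Eif4a2 in every library, whereas the order below it changed between libraries.

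Single genes dropped out of single libraries. Of the 55 genes with a role, 26 had at least 10 counts in all 8 libraries, 29 were under 10 in some library and 18 under 1 in some library. WT4 was the deepest library and still had 14 of the 55 under 10 counts and 11 under 1 count, whereas KO1 had 4 and 0. Another 15 genes had at least 10 counts in all KO-labelled libraries but not in all WT-labelled ones, among them Eif3c, Eif3g, Eif3h and Eif3i, and only Eif1a and Eif2b2 showed the opposite. A gene had 5 WT-labelled libraries to fall short in and only 3 KO-labelled ones. Of all genes in the table, 8201 in WT4 and 9422 in WT5 had at least 10 counts, against 12398 to 14245 in the KO-labelled libraries. The same classes were not counted over all genes, so no trait of initiation factor genes is read from them. The median dispersion over all genes was 1.36.

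Among the genes of start codon selection, Eif1 and Eif5 had the smallest p. Eif1ad, placed in this group by its symbol, and Eif1a had larger log2 changes, of -3.04 and -2.24, with wider errors. Eif1, on chromosome 11 (100319885 to 100322096, plus strand, GRCm38), encodes the factor that keeps the scanning ribosome from starting at a wrong codon. It had 1070, 1266, 877, 5119 and 1736 normalised CPM in WT1 to WT5, and 687, 299 and 525 in KO1 to KO3. All 3 KO-labelled values lay below all 5 WT-labelled ones, and WT4 was far above the rest. The means were 2014 ± 1765 (SD, n = 5) and 504 ± 195 (SD, n = 3). The log2 change was -2.0 ± 0.71 (SE), with an edgeR p of 0.0187 and an adjusted p of 0.324. It was -1.30 without WT4 and -1.08 without WT4 and WT5. Without scaling factors the values still did not overlap, at 933 to 2027 CPM against 438 to 926, a narrow gap between WT3 and KO1.

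Eif5 activates GTP hydrolysis on eIF2 once the start codon is found. Its values were 173, 428, 794, 360 and 654 normalised CPM in the WT-labelled libraries and 261, 140 and 53.7 in the KO-labelled ones. KO1 lay above WT1, so the groups overlapped. The log2 change of Eif5 was -1.67 ± 0.73 (SE), with an edgeR p of 0.0457 and an adjusted p of 0.34. Its unadjusted edgeR p was 0.065 without WT4 and WT5.

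The eIF1A genes showed dropout rather than a shift. Eif1ax, the X-linked copy, had 69.0, 1.04, 92.7, 0.0 and 16.5 normalised CPM in the WT-labelled libraries and 60.4, 42.2 and 77.1 in the KO-labelled ones. Eif1a, the near-identical autosomal copy, had 54.5, 65.9, 1.18, 434 and 29.02 against 73.2, 0.748 and 0.0. Where one of these copies was near 0 the other was often well above it, as in WT2, WT3, WT4, KO2 and KO3, and reads of such similar genes may be split between them by the authors' counting. Eif1b, a close relative of Eif1, had 26.3, 28.5, 0.0, 0.0 and 93.7 against 27.7, 35.6 and 13.6. The log2 changes were 0.74 ± 1.65 (SE) for Eif1ax, -2.24 ± 2.12 (SE) for Eif1a and -0.21 ± 1.97 (SE) for Eif1b, none distinguishable from 0 with edgeR (adjusted p of at least 0.57). Eif1a was at -0.76 and Eif1b at 0.53 without WT4 and WT5.

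For initiator tRNA delivery, the eIF2 beta gene Eif2s2 was the most even member. It had 267, 386, 117, 524 and 224 normalised CPM in the WT-labelled libraries against 121, 122 and 97.2. Only WT3 fell within the KO-labelled range. The nonagouti gene a overlaps it on the other strand. Its log2 change was -1.42 ± 0.64 (SE), with an edgeR p of 0.0507 and an adjusted p of 0.347. The alpha subunit gene Eif2s1, whose product the stress kinases phosphorylate, ranged from 0.168 in WT3 to 1015 in WT4 and from 4.65 to 64.6 in the KO-labelled libraries. Its log2 change was -2.46 with all libraries and 3.19 without WT4 and WT5. All 5 tested genes of this role had negative log2 changes with all libraries, from -2.46 to -0.40, and 0 had an unadjusted p under 0.05.

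The gamma subunit of eIF2 is encoded by an X-linked and a Y-linked gene. Eif2s3x had 93.1, 8.15, 198, 16.6 and 132 normalised CPM in the WT-labelled libraries and 89.0, 16.5 and 98.3 in the KO-labelled ones, a fully overlapping range with a log2 change of -0.40 ± 1.11 (SE). Eif2s3y had 0.0, 1.0, 2.0, 0.0 and 1.0 expected counts in the WT-labelled libraries and 3.0, 1.99 and 1.0 in the KO-labelled ones, at or under the 3 counts that a count of 0 allows. It was not tested. Xist, the X inactivation transcript, had 222 to 11146 counts in the 8 libraries, and Ddx3y was at 0.0 in all of them. The Y-linked genes Kdm5d and Uty were assigned 18.7 to 334 and 14.5 to 124 counts.

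The exchange factor eIF2B recharges eIF2 with GTP and is built of subunits encoded by Eif2b1 to Eif2b5. The log2 change was below 0 for all 5 genes (median -1.35), and 0 had an unadjusted p under 0.05. Eif2b1 had 0.747, 21.8, 188, 0.0 and 0.558 normalised CPM in the WT-labelled libraries and 37.0, 0.449 and 12.2 in the KO-labelled ones. WT3 alone set its WT mean, and without that library its log2 change turned from -1.35 to 1.53, and without WT4 and WT5 it was -2.14. In WT4, 4 of these 5 genes were under 10 counts, while Eif2b2 reached 353 normalised CPM there. The log2 change of Eif2b2 was -3.42, and -0.24 without WT4 and WT5.

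The kinases that phosphorylate eIF2 alpha each sense a different stress. Eif2ak2 (PKR, activated by double-stranded RNA) was measured in every library, at 88.5, 44.1, 6.89, 97.4 and 59.2 normalised CPM in the WT-labelled libraries and 39.5, 20.9 and 34.4 in the KO-labelled ones. Its groups overlapped through WT3, with a log2 change of -0.91 ± 0.98 (SE). Eif2ak1 (HRI, activated by haem shortage) had 36.3, 0.0, 50.1, 0.281 and 0.419 against 6.65, 0.15 and 7.34, with a log2 change of -1.88, or -2.62 without WT4 and WT5. Aimp2 and Ankrd61 overlap the span of Eif2ak1 on the other strand. Reads in any transcribed bases that these genes share cannot be told apart.

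Eif2ak3 (PERK, which senses unfolded protein in the endoplasmic reticulum) had 2.9, 0.0867, 26.0, 86.8 and 0.0 normalised CPM in the WT-labelled libraries against 38.9, 7.63 and 0.895. Eif2ak4 (GCN2, which senses uncharged tRNA) had 0.166, 85.9, 36.8, 0.0 and 6.14 against 18.5, 2.09 and 4.12. Both were near 0 in several libraries, and their log2 changes of -0.55 ± 2.10 (SE) and -1.65 ± 2.06 (SE) had intervals from -5.24 to 4.15 and from -6.24 to 2.95. Their log2 changes without WT4 and WT5 were 0.66 and -2.36. The adjusted p with edgeR was at least 0.62 for all 4 kinases.

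All 14 eIF3 subunit genes had negative log2 changes, from -2.94 to -0.30, with a median of -1.61, where 88.2% of abundant coding genes were negative. Without WT4 and WT5, 11 of the 14 were negative with a median of -0.60. Under limma-voom with library weights 8 were negative with a median of -0.27, and with the replicate block 9 with a median of -0.60. At an unadjusted p under 0.05 there were 3 lower, Eif3e, Eif3k and Eif3m, beside 6.43% of all genes and 15.2% of abundant coding genes, and 0 passed after adjustment. The complex took 0.119% to 0.192% of counts in the WT-labelled libraries and 0.0867% to 0.107% in the KO-labelled ones, without overlap.

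Eif3e, on chromosome 15 (43250058 to 43282719, minus strand), encodes a subunit with a PCI domain. It had 327, 375, 343, 946 and 137 normalised CPM in WT1 to WT5 and 88.2, 75.4 and 73.0 in the KO-labelled libraries. The KO-labelled values were close to one another and all below WT5, the lowest WT-labelled value. The means were 426 ± 305 (SD, n = 5) and 78.9 ± 8.15 (SD, n = 3), with a log2 change of -2.43 ± 0.72 (SE), an edgeR p of 0.00739 and an adjusted p of 0.324. Processed copies named Eif3s6-ps took up to 37.3% of the joint count, in KO2. With these copies added, the KO-labelled libraries had 89.7, 119 and 76.7 and the lowest WT-labelled one 135, still without overlap. Without scaling factors WT5, at 93.2 CPM, lay below all KO-labelled libraries.

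Eif3k, on chromosome 7 (28971372 to 28981864, minus strand), encodes one of the small, peripheral eIF3 subunits. Its values were 89.8, 105, 137, 709 and 182 normalised CPM in the WT-labelled libraries and 43.1, 35.4 and 48.0 in the KO-labelled ones. The groups did not overlap with or without scaling factors, and in unscaled CPM the ranges were 102 to 281 and 51.9 to 62.0. The log2 change was -2.53 ± 0.90 (SE), with an edgeR p of 0.0187 and an adjusted p of 0.324. It was -1.60 without WT4 and -1.37 without WT4 and WT5.

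Eif3m, another PCI subunit, had 193, 95.5, 369, 656 and 230 normalised CPM in the WT-labelled libraries against 89.6, 80.3 and 115. WT2 lay within the KO-labelled range. The log2 change was -1.70 ± 0.73 (SE), with an edgeR p of 0.042 and an adjusted p of 0.335. Leaving out WT4 and WT5 raised the unadjusted edgeR p to 0.0752. Ccdc73 overlaps Eif3m on the other strand, and Spg11 overlaps Eif3j1. Eif3a, the large scaffold subunit, was among the most even of the complex, with 225, 261, 170, 117 and 337 against 173, 160 and 81.8 and a log2 change of -0.68 ± 0.61 (SE).

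The eIF3 subunits form 1 complex, yet their transcript levels differed widely inside each library. In WT2, 4 of the 14 genes were under 1 TPM, with Eif3j2 at 0.0, while Eif3e reached 495 TPM. In WT5, 2 genes were under 1 TPM, with Eif3h at 0.0 and Eif3i at 273 TPM. The KO-labelled libraries had 0 such genes, and the SD of log2(TPM + 1) over the 14 genes was 1.51, 1.33 and 1.81 in KO1 to KO3, against 1.75 to 3.20 in the WT-labelled libraries. Eif3j1 and Eif3j2 are close copies, and their counts may be split between them.

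**Figure D4:**
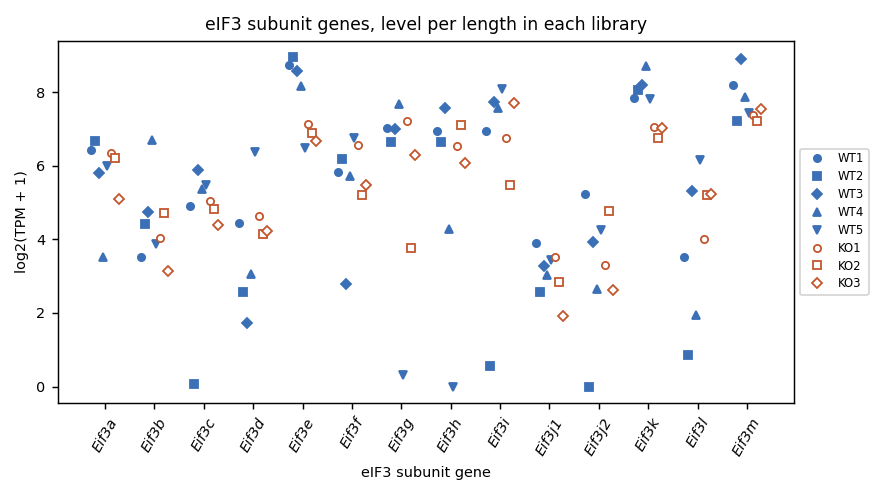
Each marker gives log2(TPM + 1) of an eIF3 subunit gene in one library, filled blue for WT1 to WT5 and open orange for KO1 to KO3. No open marker falls near 0, while filled markers reach 0 for Eif3h and Eif3j2.

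Among cap-binding and eIF4F genes, Eif4g2 had the lowest p. It encodes DAP5, a relative of eIF4G that lacks the cap-binding link and serves alternative initiation, and lies on chromosome 7 (111067750 to 111083030, minus strand). It had 807, 595, 605, 1529 and 813 normalised CPM in WT1 to WT5 and 373, 168 and 99.5 in KO1 to KO3. All KO-labelled values lay below all WT-labelled ones, and in unscaled CPM the ranges were 553 to 919 and 129 to 503, again apart. The means were 870 ± 383 (SD, n = 5) and 213 ± 142 (SD, n = 3). The log2 change was -2.03 ± 0.63 (SE), with an edgeR p of 0.0096 and an adjusted p of 0.324.

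Eif4g1, the canonical scaffold, had overlapping groups. Its values were 46.1, 25.7, 2.1, 1.54 and 41.9 normalised CPM in the WT-labelled libraries and 22.0, 32.2 and 15.0 in the KO-labelled ones, with a log2 change of -0.03 ± 1.26 (SE) and an interval from -2.85 to 2.80. The log2 ratio of Eif4g1 to Eif4g2 was -4.13, -4.53, -8.14, -9.89 and -4.28 in the WT-labelled libraries and -4.08, -2.38 and -2.72 in the KO-labelled ones. All KO-labelled ratios were above all WT-labelled ones, KO1 only barely above WT1. The difference of 3.13 had an exact two-sided permutation p of 0.0893 and an adjusted p of 0.524 over the 8 gene pairs compared.

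Eif4e encodes the cap-binding protein itself. It had 41.3, 154, 10.0, 555 and 285 normalised CPM in the WT-labelled libraries and 60.1, 15.1 and 32.9 in the KO-labelled ones. WT1 and WT3 fell in or below the KO-labelled range, and the log2 change was -2.53 ± 1.24 (SE), with an edgeR p of 0.0682 and an adjusted p of 0.36. Leaving out WT4 and WT5 gave -0.94. Eif4e2, a homologue that binds the cap without eIF4G and represses translation, had 162, 14.7, 61.0, 591 and 0.419 against 44.9, 14.5 and 9.13, with a log2 change of -2.86, or -1.78 without WT4 and WT5. The related Eif4e3 had a log2 change of -2.74 (0.56 without WT4 and WT5) and Eif4g3 one of -1.16, both with an edgeR p above 0.12. Gm20696 overlaps Eif4e3 on the same strand. The oocyte gene Eif4e1b had at most 5.0 counts in any library and was not tested.

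The helicase genes held the member with the smallest p. Eif4a2, on chromosome 16 (23107444 to 23114136, plus strand), encodes one of the paralogous DEAD-box helicases of eIF4F. It had 946, 1114, 1156, 783 and 904 normalised CPM in WT1 to WT5, and 360, 220 and 180 in KO1 to KO3. The WT-labelled libraries were within a narrow range, and the highest KO-labelled value was well under the lowest of them. The means were 981 ± 154 (SD, n = 5) and 253 ± 94.8 (SD, n = 3), a ratio of 3.87.

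The log2 change of Eif4a2 was -1.95 ± 0.48 (SE), with an interval from -3.03 to -0.87, an edgeR p of 0.00245 and an adjusted p of 0.324. DESeq2 gave an adjusted p of 2.39e-07. Limma-voom with library weights also called it, with a log2 change of -2.11, and it was the only initiation factor gene so called. The log2 change stayed between -2.36 and -1.77 when any 1 library was left out. Its separation rested on scaling in WT4: in unscaled CPM that library had 310 and WT5 615, against 486, 322 and 233 in the KO-labelled libraries, while WT1 to WT3 had 1077 to 1231. Rfc4 overlaps Eif4a2 on the other strand.

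Eif4a1, the other helicase of eIF4F, had 198, 174, 264, 902 and 318 normalised CPM in the WT-labelled libraries and 199, 65.5 and 13.1 in the KO-labelled ones. KO1 lay among the WT-labelled values. The log2 change was -2.0 ± 0.97 (SE), with an edgeR p of 0.0654 and an adjusted p of 0.358. Leaving out WT4 and WT5 gave -1.21. Eif4a2 had the higher median level per length, 392 TPM against 207 TPM for Eif4a1. The log2 ratio of Eif4a1 to Eif4a2 ranged from -2.68 to 0.20 in the WT-labelled libraries and from -3.77 to -0.85 in the KO-labelled ones, with an exact permutation p of 0.643.

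Eif4a3, the helicase of the exon junction complex, had 118, 20.03, 46.7, 272 and 405 normalised CPM in the WT-labelled libraries against 41.1, 47.4 and 29.2, with a log2 change of -2.13 ± 1.04 (SE), or -0.60 without WT4 and WT5. The helicase cofactor genes differed less. Eif4b had 173, 130, 176, 64.9 and 120 against 156, 50.7 and 57.1, and Eif4h had 31.7, 108, 67.6, 154 and 163 against 84.8, 68.3 and 48.7. Their log2 changes were -0.59 ± 0.70 (SE) and -0.64 ± 0.76 (SE), with overlapping groups, and that of Eif4h was 0.22 with library totals alone and -0.031 without WT4 and WT5.

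**Figure D5:**
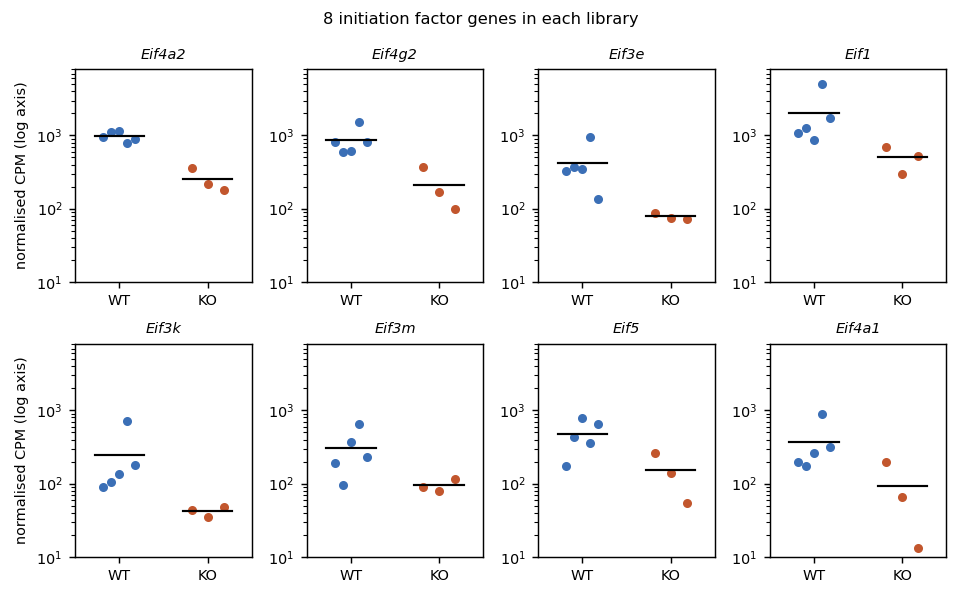
Points give normalised CPM (log axis) of 8 genes in each WT-labelled (blue) and KO-labelled (orange) library, and black bars give the group means. Eif4a2, Eif4g2, Eif3e, Eif1 and Eif3k show groups that do not overlap, whereas Eif3m, Eif5 and Eif4a1 overlap.

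The upstream sequences of the eIF4F subunit genes differ in a motif that is known to bind basic helix-loop-helix factors such as Myc. The E-box CACGTG reads the same on both strands. It occurs in the RefSeq promoter window (250 bases before to 50 after a start, GRCm38.p6) of 10 of the 45 members that have an entry, or 22.2%, and of 8.09% of all 27025 genes with an entry. Some members have more than 1 window (58 windows for the 45), and 1 window with the E-box was enough. A window of Eif4e and of Eif4a1 holds it, and none of Eif4a2, the member with the smallest p, does. Where a gene has such a window, it is the one shown. That of Eif4e lies inside the gene, which is annotated from 138526179. The 250 bases before a start are shown for these genes, 5′ to 3′, with the E-box in capitals: Eif4e at chr3:138527018-138527267 (plus strand, E-boxes starting 228 and 64 bases before the start), Eif4a1 at chr11:69672424-69672673 (minus strand, 189 bases before) and Eif4a2 at chr16:23107218-23107467 (plus strand).
Eif4e: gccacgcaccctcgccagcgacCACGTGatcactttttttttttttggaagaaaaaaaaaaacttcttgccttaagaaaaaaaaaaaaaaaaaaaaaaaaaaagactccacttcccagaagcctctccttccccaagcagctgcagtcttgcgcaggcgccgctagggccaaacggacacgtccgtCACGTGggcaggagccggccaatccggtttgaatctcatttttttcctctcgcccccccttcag
Eif4a1: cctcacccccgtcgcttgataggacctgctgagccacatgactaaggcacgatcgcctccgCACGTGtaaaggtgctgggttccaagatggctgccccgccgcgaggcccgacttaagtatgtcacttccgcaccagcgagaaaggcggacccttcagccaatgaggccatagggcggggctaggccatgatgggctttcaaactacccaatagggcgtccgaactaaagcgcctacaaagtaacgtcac
Eif4a2: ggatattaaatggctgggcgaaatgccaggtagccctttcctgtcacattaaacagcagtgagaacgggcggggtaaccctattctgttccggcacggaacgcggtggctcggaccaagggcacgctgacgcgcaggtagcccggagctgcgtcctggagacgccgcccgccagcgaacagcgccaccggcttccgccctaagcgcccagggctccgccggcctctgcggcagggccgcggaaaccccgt
The 9 tested genes with an E-box had a median log2 change of -1.21, all 9 negative, and the 32 without had a median of -1.49, 30 of them negative.

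A pyrimidine tract beginning with C at the first base marks many mRNAs of the translation machinery whose use mTOR controls. A C followed by at least 4 further pyrimidines at the annotated start was found in 3 of the 45 members (6.67%) and in 3.01% of all genes with an entry, read on the transcribed strand only. The tract of 11 bases at the starts of Eif3f, chr7:108934405-108934434 (plus strand), and Eif2s3x, chrX:94212632-94212661 (minus strand), is in capitals below, with 10 bases before the start.
Eif3f: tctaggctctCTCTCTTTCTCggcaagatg
Eif2s3x: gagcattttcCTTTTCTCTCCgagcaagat
Eif3f had a log2 change of -1.21 ± 1.04 (SE), or 0.17 without WT4 and WT5, and Eif2s3x one of -0.40, both with edgeR adjusted p above 0.53. The other match was Eif2c5, an older symbol annotated as a long noncoding RNA, which the naming rule admits and which is not an initiation factor.

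The genes that restrain eIF4E had overlapping shares of the counts, with 0.0045% to 0.0229% in the WT-labelled libraries and 0.0155% to 0.0304% in the KO-labelled ones. Eif4enif1, which carries eIF4E into the nucleus and to processing bodies, had 116, 103, 49.9, 13.1 and 122 normalised CPM in the WT-labelled libraries and 72.3, 87.6 and 197 in the KO-labelled ones. Its log2 change of 0.56 ± 0.83 (SE) was not distinguishable from 0 (edgeR adjusted p of 0.724), and without KO3 it was -0.04. Drg1 overlaps Eif4enif1 on the other strand.

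The 4E-binding protein genes were low or absent in several libraries. Eif4ebp1 had 7.63, 1.73, 37.0, 0.562 and 0.419 normalised CPM in the WT-labelled libraries against 2.54, 4.79 and 5.19. Its paralogue Eif4ebp2 had 54.3, 0.694, 43.6, 98.9 and 64.9 against 33.4, 53.5 and 31.9. Eif4ebp3, which AC115631.1 overlaps on the same strand, had 23.1, 3.29, 0.0, 0.0 and 14.7 against 6.65, 7.48 and 1.25. The log2 changes were -1.18 ± 1.56 (SE), -0.41 ± 1.19 (SE) and -0.68 ± 1.92 (SE), and with library totals alone that of Eif4ebp2 was 0.52. Eif4ebp1 was at -1.86 and Eif4ebp2 at 0.32 without WT4 and WT5. Of the 4 genes of this role, 2 were negative with library totals alone and 1 under limma-voom, so they had no stable direction.

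Eif5a, which helps the ribosome through difficult peptide bonds, varied widely between libraries. It had 110, 5.29, 373, 2187 and 374 normalised CPM in the WT-labelled libraries and 43.6, 76.0 and 96.8 in the KO-labelled ones. WT2 was the lowest of all and WT4 the highest, with a log2 change of -3.08 ± 1.47 (SE), an edgeR p of 0.0629 and an adjusted p of 0.358. It was -1.58 without WT4, -1.15 without WT4 and WT5, -0.25 with the replicate block and -0.27 under limma-voom. Eif5b, which joins the ribosomal subunits and is overlapped by Rev1, had a log2 change of -1.37 ± 0.84 (SE), and Eif6, which keeps the large subunit from joining early, one of -3.78 ± 2.05 (SE), or -0.91 without WT4 and WT5. Eif5a2, the tissue-restricted copy of Eif5a, had 170 counts in KO2 and at most 1.0 in any other library, and was not tested.

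Of the 20 genes without a role, 5 were tested and all of these were Eif1ad copies near 1 normalised CPM or below in most libraries. Eif1ad13, on chromosome 12 (87795512 to 87795946, plus strand), had 0.0, 3.13, 3.04, 0.0 and 1.0 expected counts in the WT-labelled libraries and 9.23, 11.2 and 4.65 in the KO-labelled ones. The groups did not overlap, but at these counts, and among near-identical copies, the assignment of reads is uncertain. Its log2 change was 2.92 ± 1.0 (SE), with an edgeR p of 0.0158 and an adjusted p of 0.324. In all, 13 of the 75 genes were under 10 counts in every library, and 11 of these were without a role.

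Ratios of related genes were compared for 8 pairs, with an exact two-sided permutation test over 56 splits whose smallest p is 0.0179. None passed: the adjusted p was at least 0.524. Beside Eif4g1 to Eif4g2, the largest differences were 7.60 for Eif1ax to Eif1a (exact p of 0.179) and -4.79 for Eif1 to Eif1b (exact p of 0.196). The other 5 pairs had an exact p of at least 0.554.

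Elongation, termination and recycling genes rest mainly on Eef2 and Eef1a1, and together they held 0.480% to 0.611% of the counts in the WT-labelled libraries and 0.720% to 1.25% in the KO-labelled ones. Without Eef2 the other 16 genes held 0.267% to 0.554% against 0.219% to 0.300%, and the groups overlapped. Eef2, which moves the ribosome along the mRNA, had 1667, 1967, 2198, 1436 and 2138 normalised CPM in WT1 to WT5 and 3115, 4705 and 7964 in KO1 to KO3. All KO-labelled values lay above all WT-labelled ones, also in unscaled CPM. Its log2 change was 1.48 ± 0.40 (SE), with an edgeR p of 0.00438 and an adjusted p of 0.324. Eef1a1, which brings aminoacyl-tRNA to the ribosome, had 1839, 1849, 1708, 9421 and 3725 against 1424, 1417 and 1103. Its log2 change was -1.50 ± 0.67 (SE), with WT4 far above the rest. In unscaled CPM its groups overlapped, at 1818 to 3731 against 1429 to 2074.

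Of the 17 elongation, termination and recycling genes 13 were tested and 0 were called by edgeR. At an unadjusted p under 0.05, 4 were lower and 1 higher, beside 6.43% and 7.96% of all genes, and DESeq2 called 2 lower, beside 10.0%. Among the 13, 11 had log2 changes below 0 (median -1.41 over the 13). Of the 21 genes of mTOR and cap regulation all were tested and 0 were called by edgeR, with 2 lower at an unadjusted p under 0.05 and 1 lower by DESeq2, beside the same 6.43% and 10.0%. There 18 were negative, with a median of -1.19. Pabpc1, the poly(A)-binding protein, had a mean of 1010 ± 326 (SD) normalised CPM against 531 ± 122 (SD). Rps6, the S6 kinase substrate of the small ribosomal subunit, had 1501 ± 1611 (SD) against 632 ± 100 (SD). WT4 raised that WT mean, at 4362 normalised CPM beside 1107 in WT5. WT1 to WT3 had 634, 729 and 672, within or near the KO-labelled range of 562.1 to 746.5. Of 15 integrated stress response targets and phosphatases, 11 were tested and 0 were called by edgeR. With edgeR, 1 was lower at an unadjusted p under 0.05, beside 6.43% of all genes. DESeq2 called 2 lower and 1 higher, beside 10.0% and 6.4%. Here 5 were negative and 6 positive, with a median of 0.01, and targets were not separated from phosphatases in these counts. The phosphatase subunit genes Ppp1cb and Ppp1cc led that list in abundance, at 369 ± 295 (SD) against 92.7 ± 33.9 (SD) and 177 ± 93.5 (SD) against 91.8 ± 24.7 (SD) normalised CPM. Ribosomal protein genes overlapped between the groups, at 3.27% to 9.01% of counts against 3.24% to 6.13%.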

How the data were processed

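RNA of mouse Treg cells was measured in 8 libraries, grouped and numbered by their titles (5 chimera WT, 3 chimera KO). Values are the authors' deposited expected counts, which may hold decimals. Tools listed in the submitters' processing notes, without version or role, are DESeq2, RSEM, StringTie, HISAT2 and fastp, with the build mm10; which annotation was used is not given in these sources. The kit, SMART-Seq v4 per the labels' protocols, does not mark strand. The table held 0 columns of other samples.

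The genes and lists were chosen with earlier results of these data known. Expected counts were rounded. The test was the two-sided quasi-likelihood test of edgeR 4.0.16 (R 4.3.3) over all 8 libraries without covariates, after filterByExpr with a minimum count of 10 and TMM scaling, adjusted by Benjamini-Hochberg over all genes with a threshold of 0.05. TPM used the deposited lengths. Coordinates came from GENCODE M21, which held all 75 members. Ratios of gene pairs were log2 ratios of counts with a pseudocount of 0.5. Intervals of log2 changes are at 95%. Reads carry no molecular identifiers, so limits cover counting error only. Counts of every pair of libraries within a group differed beyond sampling noise (lowest chi-square per degree of freedom 66.8). In data simulated at the observed spread (13638 genes), edgeR recovered 0%, 0%, 0% and 2% of genes changed 2, 4, 8 and 16-fold, and at a dispersion of 0.1 (14271 genes) 12%, 100%, 100% and 100%, with 7 of 163 calls false.

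Genes named with values in every library were, by rule, those called, up to 12 further by smallest p, the highest by TPM in each role, both genes of each pair, the eIF2 alpha kinases, Eif4ebp1 to Eif4ebp3, Eif2s3x and Eif2s3y, and from each further list the genes called or else the 2 most abundant. Eif2s1, Eif2b2, Eif3a, Eif3h, Eif3i and Eif5a2 are named outside this rule, with their values known. The alternatives were DESeq2 1.42.0, its size factors in edgeR, library totals alone, other filters, limma-voom (limma 3.58.1) with quality weights, a replicate block, leaving out each library, and leaving out the libraries named FY (WT2 and WT3). Leaving out WT4 and WT5, thinning, and the share within protein-coding counts were added after seeing the data.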

Additional observations from a re-analysis of the deposited data

Results flagged for a closer look

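Of 41 gene levels and ratios examined over the 5 WT-labelled libraries, 10 had 1 library far from the other 4. The cut-off used flags about 1 in 20 only for independent, normally distributed values. All 10 flags were high values and the levels share the scaling factors, so no excess over chance is read from this number. In 7 of them the high library was WT4, whose scaling factor of 0.40 raises all its normalised values: Eif1 at 5120 normalised CPM, Eif5a at 2190, Eif4g2 at 1530, Eif4a1 at 902, Eif3k at 709, Eif4e2 at 591 and Eif1a at 434. WT3 was far above the others for Eif2b1, at 188 normalised CPM, and for Eif4ebp1, at 37.0. WT2 stood apart in the log2 ratio of Eif3j1 to Eif3j2, at 8.28, where Eif3j2 had 0.0 counts. The part of the other cell types whose markers were high in WT4 was not tested.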

How the results depend on the processing

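edgeR called 0 initiation factor genes in the main analysis and with any 1 library left out (range 0 to 0), while DESeq2 called 14 and limma-voom 1. At an unadjusted p under 0.05 the count was 8; it was 21 with DESeq2, 15 with no count filter, 5 with a mean of at least 5 CPM, 5 with no scaling factor and 5 after thinning, and 4 to 11 with a library left out. Genes whose groups do not overlap numbered 6, 15 without the FY libraries (fewer libraries to overlap), and 6 to 13 with a library left out. The median log2 change was -1.42, -0.58 under limma-voom and -1.81 to -1.04 with a library left out. The share difference kept its direction, at -0.40 to -0.28 with a library left out. Without WT4 and WT5, 6 of the 8 genes remained at an unadjusted p under 0.05.

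Same-numbered libraries correlated at 0.0175, 0.0202 and 0.0466. For each of WT1 to WT3, the same-numbered library was the best match among the KO-labelled ones. Among the WT-labelled libraries, KO1 correlated best with WT4 (0.0461) and KO2 with WT3 (0.0215). All these values were small, so the numbers are not taken as pairs. With the replicate block, 7 genes had p under 0.05, 0 were called and the median was -0.71. It reversed the Eif4a1 to Eif4a2 ratio (0.23) and the Eif4e to Eif4e2 ratio (1.17), and the log2 changes of Eif1b (1.75), Eif4ebp2 (0.91), Eif4g1 (0.66), Eif4h (0.10), Eif2ak3 (2.99) and Eif4ebp3 (1.24).

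No result that reversed had passed a test, and the cause was not tested. Under limma-voom Eif1b was at 2.45, Eif4ebp2 at 1.28, Eif4g1 at 0.62, Eif4h at 0.040, Eif3j2 at 1.26, Eif2ak3 at 1.86 and Eif4ebp3 at 1.09. With no scaling factor Eif1b was at 0.52, Eif4ebp2 at 0.52, Eif4g1 at 0.53, Eif4h at 0.22, Eif2ak3 at 0.73 and Eif2s3x at 0.10. With at least 5 CPM Eif1b was at 0.12 and Eif4g1 at 0.28; after thinning Eif1b was at 0.17, Eif4ebp2 at 0.039 and Eif4g1 at 0.32. Without WT4 and WT5 Eif1b was at 0.53, Eif4ebp2 at 0.32, Eif2ak3 at 0.66, and the ratios Eif4a1 to Eif4a2 and Eif4e to Eif4e2 at 0.23 and 1.17. Without the FY libraries Eif4ebp1 was at 0.76, Eif2ak4 at 1.89 and Eif4ebp1 to Eif4ebp2 at 2.49. With a library left out the ranges crossed 0 for Eif2b1 (-2.83 to 1.53), Eif4enif1 (-0.037 to 0.81), Eif1b (-0.54 to 0.99), Eif4ebp1 (-1.49 to 0.70), Eif4g1 (-0.36 to 0.42), Eif2ak3 (-2.49 to 1.12), Eif4ebp3 (-1.06 to 0.21), Eif2s3x (-0.77 to 0.14), and the ratios Eif4ebp1 to Eif4ebp2 (-1.02 to 1.11), Eif4b to Eif4h (-0.69 to 0.24), Eif4a1 to Eif4a2 (-1.08 to 0.38) and Eif4e to Eif4e2 (-1.84 to 1.09).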
